A study of Homo sapiens with 2 samples.

Results

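Proteases of the extracellular matrix and of the plasminogen and coagulation system were followed across 2 sections of MDA-MB-231 tumors, 1 section per tumor. The 9 genes were picked by symbol from the 36601 human features of the count matrix: MMP1, MMP14, PLAU, PLAUR, PLAT, F3, TIMP1, TIMP2 and TFPI2. All 9 were detected in both sections and all 9 passed the filter on low counts in each comparison. Their levels were set against a hypoxia score computed from 28 other genes, against distance from the spots with the highest score, and against depth below the tissue border.

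The plasminogen system works as a cascade on the cell surface. Urokinase (PLAU) and tissue plasminogen activator (PLAT) cut plasminogen to the broad protease plasmin, and PLAUR is the receptor that holds urokinase at the membrane. Tissue factor (F3) starts the extrinsic coagulation pathway by binding factor VII, and TFPI2 is a Kunitz-type inhibitor of plasmin and other serine proteases. MMP1 is the interstitial collagenase, MMP14 is a membrane-anchored metalloproteinase that activates the zymogen of MMP2, and TIMP1 and TIMP2 are secreted inhibitors of metalloproteinases. MDA-MB-231 is a triple-negative breast cancer line of mesenchymal character that is known for invasive growth and for high urokinase and tissue factor.

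Both tumors (labelled Tumor-897, here tumor 1, and Tumor-899, here tumor 2) came from a hypoxia fate-mapping version of the line, in which fluorescence marks cells that have met low oxygen. They were untreated, were taken 18 days after implantation and were frozen, and 10 µm sections were read on Visium arrays. The labels name neither the host strain nor its age, and they do not say whether the tumors grew in separate animals, so the spread between sections may be partly technical. The fluorescence was not used here, so the score stands for expression of hypoxia genes and not for measured oxygen.

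Tumor 1 gave 58661164 UMIs (counted RNA molecules) over 2536 spots, with a median of 23574 UMIs per spot, and tumor 2 gave 39735490 UMIs over 2841 spots, with a median of 15895. A spot holds several cells, so fewer cells of a type and less RNA per cell cannot be told apart. All 8 markers of the line or of mesenchymal breast cancer cells were detected, and VIM stood at 5639 and 5548 CPM (UMIs per 1000000 UMIs) in tumors 1 and 2. Endothelial markers were near 0, with a summed level between 3.93 and 7.30 CPM in every zone, and the 5 platelet markers summed to between 0.348 and 1.44 CPM, with PF4 highest at 27 and 21 UMIs in tumors 1 and 2 and GP9 and GP1BA at 0. The matrix was counted on a human reference, and a host read that matches a human gene would be counted with it. Spots whose smoothed UMI count was low (the low-UMI area) made up 22.3% of tumor 1 and 30.1% of tumor 2. The 2 sections share 1624 spot barcodes, which on these arrays name positions and not cells.

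Levels are given as CPM of the zone or section, and intervals are exact Poisson 95% intervals that cover counting error only. Over whole sections, PLAU stood at 595 and 602 CPM in tumors 1 and 2 and had a UMI in 97.0% and 83.9% of spots. TIMP1 stood at 826 and 807 CPM, with a UMI in 99.0% and 89.3% of spots. F3 stood at 201 and 212 CPM and TIMP2 at 201 and 233. The remaining 5 genes had between 47.4 and 108 CPM: PLAUR had 108 and 103, PLAT 87.4 and 83.1, MMP14 56.9 and 84.9, MMP1 57.9 and 74.7, and TFPI2 47.4 and 53.9. Thus every gene was measurable in both tumors.

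F3, MMP1, TFPI2, TIMP1 and PLAUR were higher and MMP14, PLAU and PLAT were lower in the high-score zone than in the low-score zone, and TIMP2 did not pass the test. The zones are the top and bottom quartile of spots by score, with 634 against 634 spots in tumor 1 and 711 against 711 in tumor 2. UMI sums of the 4 zones were fitted with edgeR's quasi-likelihood test with the tumor as a block, and a gene was called where its p, adjusted by Benjamini-Hochberg over 14191 genes, was under 0.05. Of these genes 18.6% were called, 10.2% higher and 8.41% lower, against 8 of the 9 chosen genes, 5 higher and 3 lower. The median log2 fold change of the 9 was 0.27, beside 0.0034 over all tested genes. The score that set the zones came from these same libraries. The fit has 1 residual degree of freedom, so its p-values and SEs rest mostly on the variance shared across genes. An SE given after ± therefore does not measure the spread between the tumors. Without the block edgeR called 3 of the 9 (F3, MMP1 and TFPI2), beside 444 genes higher and 227 lower in all. DESeq2 called F3 and MMP1, beside 287 genes higher and 72 lower in all.

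The coagulation initiator F3 (ENSG00000117525, chr1:94529173-94541759) had 289 and 307 CPM in the high-score zones of tumors 1 and 2, against 146 and 112 in the low-score zones. The log2 fold change was 1.32 ± 0.09 (SE of the fit, edgeR adjusted p = 3.01e-17), with 1.11 in tumor 1 and 1.56 in tumor 2. This is 2.50-fold and places F3 at rank 150 by log2 fold change among the 14191 genes. F3 was called under each of 13 other settings of the processing (not counting fits split by depth), with log2 fold changes between 1.16 and 1.52. The protease inhibitor TFPI2 (ENSG00000105825, chr7:93885396-93890753) had 54.7 and 61.0 CPM in the high-score zones, against 42.4 and 40.0 in the low-score zones. Its log2 fold change was 0.59 ± 0.10 (edgeR adjusted p = 9.66e-06), close in both tumors at 0.49 and 0.71.

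Among the proteases, the collagenase MMP1 (ENSG00000196611, chr11:102789919-102798160) had 76.4 and 102 CPM in the high-score zones, against 45.7 and 45.0 in the low-score zones. Its log2 fold change was 1.06 ± 0.10 (edgeR adjusted p = 8.81e-13), 2.08-fold, called under all 13 settings. The membrane protease MMP14 (ENSG00000157227, chr14:22836585-22847758) ran the other way, with 49.7 and 64.2 CPM in the high-score zones, against 65.5 and 119.8 in the low-score zones. Its log2 fold change was -0.53 ± 0.10 (edgeR adjusted p = 4.02e-05), with -0.27 in tumor 1 and -0.79 in tumor 2. The 2 collagen-degrading enzymes therefore moved in opposite directions with the score.

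Urokinase, PLAU (ENSG00000122861, chr10:73908832-73917494), had 527 and 435 CPM in the high-score zones, against 655 and 794 in the low-score zones. It fell by 0.47 ± 0.09 on the log2 scale (edgeR adjusted p = 1.27e-04), by 0.19 in tumor 1 and by 0.77 in tumor 2. PLAT (ENSG00000104368), the other plasminogen activator, had 77.1 and 71.0 CPM in the high-score zones, against 93.5 and 97.2 in the low-score zones. Its log2 fold change of -0.24 ± 0.09 passed narrowly (edgeR adjusted p = 0.0432) and was called under 2 of the 13 settings. Both activators were thus lower in the high-score zone, while the urokinase receptor was not. PLAUR (ENSG00000011422, chr19:43646095-43670169) had 129 and 101 CPM in the high-score zones, against 98.7 and 109 in the low-score zones, so that the zones overlapped across tumors. Its call (log2 0.27 ± 0.09, edgeR adjusted p = 0.0340) rests on tumor 1, with a log2 fold change of 0.51 there and -0.01 in tumor 2, and was kept under 5 of the 13.

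The inhibitor TIMP1 (ENSG00000102265, chrX:47582436-47586789) had 1031 and 863 CPM in the high-score zones, against 663 and 825 in the low-score zones. Its log2 fold change was 0.47 ± 0.09 (edgeR adjusted p = 1.71e-04), with 0.76 in tumor 1 and 0.17 in tumor 2. TIMP2 (ENSG00000035862, chr17:78852977-78925387) had 223 and 227 CPM in the high-score zones, against 195 and 263 in the low-score zones. Its log2 fold change was 0.11 ± 0.09 (edgeR adjusted p = 0.435), and the tumors differed in sign, with 0.32 in tumor 1 and -0.11 in tumor 2. Of the 9 genes, 7 had the same sign in both tumors.

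**Figure D1:**
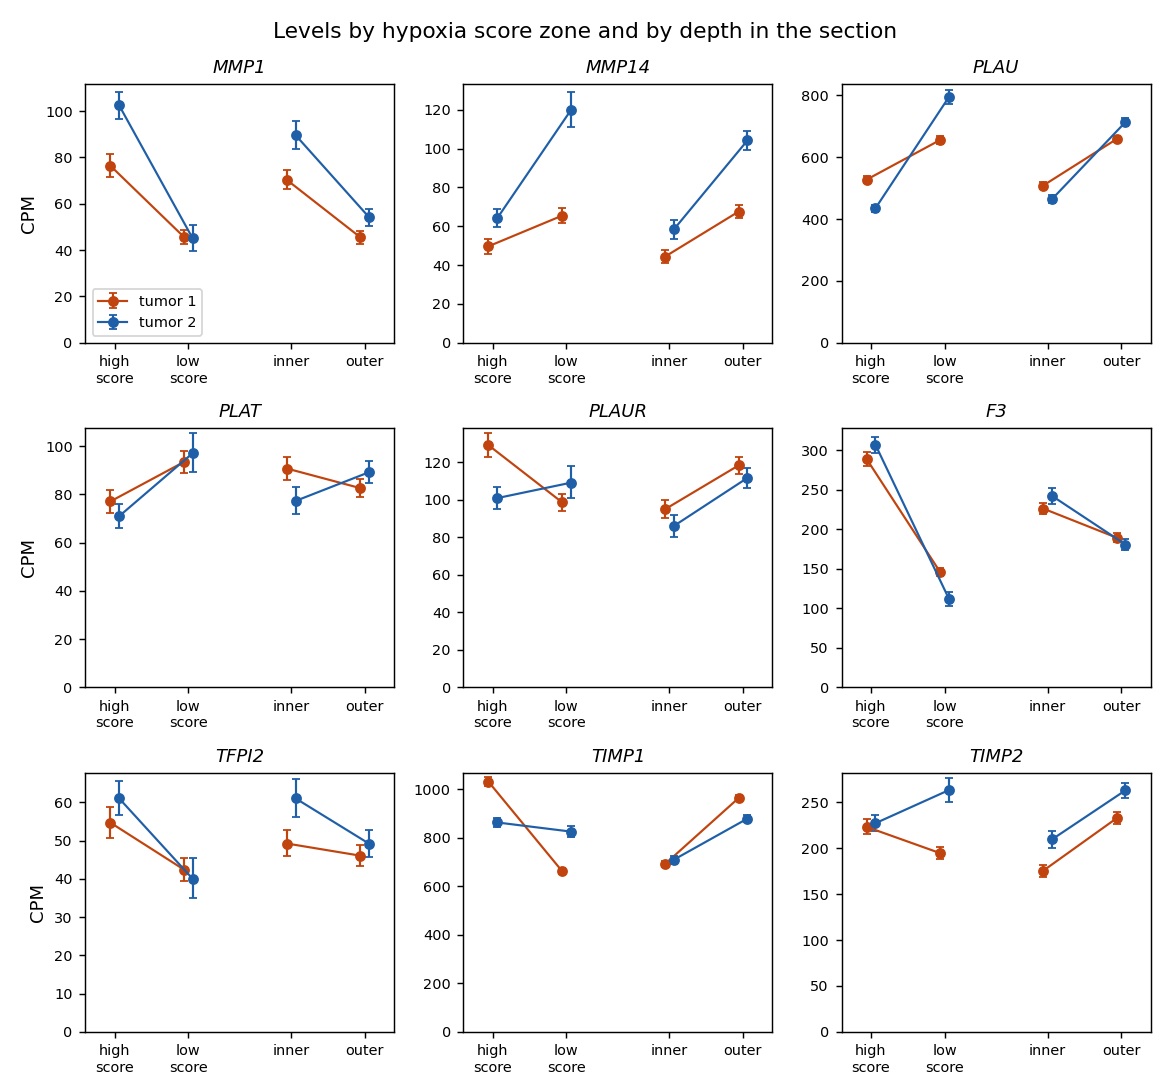
Levels of the 9 genes in CPM (vertical axes) in high-score and low-score zones and in inner and outer tertiles of tumor 1 (orange) and tumor 2 (blue), with exact Poisson 95% intervals as bars. F3 stands at 289 and 307 in the high-score zones, against 146 and 112 in the low-score zones, while PLAU stands at 527 and 435 against 655 and 794.

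Other cells differed between these zones in tumor 2. The summed level of the fibroblast markers was 1149 CPM in the high-score zone of tumor 1, against 919 in its low-score zone, and 805 in the high-score zone of tumor 2, against 1926 in its low-score zone. COL1A1, COL1A2 and COL3A1 carried most of that sum, while the other 7 fibroblast markers were low over whole sections, led by THY1 at 25.1 and 30.4 CPM and FBLN1 at 18.0 and 21.1 in tumors 1 and 2, with DCN, LUM and DPT between 0.201 and 0.856. Muscle markers were at 14.3 CPM in the high-score zone of tumor 1, against 12.6 in its low-score zone, and at 23.8 in the high-score zone of tumor 2, against 835 in its low-score zone. Spots richest in markers of other cells were then left out. The marker sum also took in endothelial, macrophage and granulocyte, red blood cell, adipocyte and skin markers. Without these spots the same direction held at similar size, with log2 fold changes of -0.66 for MMP14 (edgeR adjusted p = 6.08e-08) and -0.53 for PLAU (edgeR adjusted p = 1.50e-06). The low-UMI area held 18.5% of the high-score zone and 11.04% of the low-score zone in tumor 1, and 10.3% and 56.0% in tumor 2. Without that area F3 had a log2 fold change of 1.35 and MMP1 of 1.13, and 6 of the 9 genes were called. In that fit 1094 of all 14050 genes tested were called higher and 810 lower.

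RefSeq promoters (GRCh38.p14, 250 bases before to 50 bases after the gene's start) were available for 6 of the 9 genes and were searched for short motifs on both strands. The motifs were the hypoxia response core ACGTG or GCGTG, the AP-1 site TGACTCA or TGAGTCA, and the GC box GGGCGG. These sites can overlap, and a match describes letters and not a bound site. Of these, 3 genes called higher and 1 called lower are printed 5′ to 3′ in the direction of the gene, because members that moved with the score can be set beside one another in this way, with matches to the hypoxia response core or the AP-1 site in capitals.
F3 (chr1:94541710-94542009, minus strand): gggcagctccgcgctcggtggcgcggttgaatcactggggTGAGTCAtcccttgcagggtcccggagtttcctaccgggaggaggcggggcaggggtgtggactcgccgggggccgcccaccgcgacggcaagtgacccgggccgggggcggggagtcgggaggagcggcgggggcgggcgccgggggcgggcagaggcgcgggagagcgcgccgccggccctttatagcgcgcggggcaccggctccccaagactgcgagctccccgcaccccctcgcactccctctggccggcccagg
PLAUR (chr19:43670120-43670419, minus strand): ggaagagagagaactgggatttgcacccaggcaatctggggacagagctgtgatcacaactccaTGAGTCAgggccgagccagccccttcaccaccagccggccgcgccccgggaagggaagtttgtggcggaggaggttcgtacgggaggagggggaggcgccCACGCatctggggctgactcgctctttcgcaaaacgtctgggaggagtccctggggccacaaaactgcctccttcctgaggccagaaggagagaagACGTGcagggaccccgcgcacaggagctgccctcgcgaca
TIMP1 (chrX:47582186-47582485, plus strand): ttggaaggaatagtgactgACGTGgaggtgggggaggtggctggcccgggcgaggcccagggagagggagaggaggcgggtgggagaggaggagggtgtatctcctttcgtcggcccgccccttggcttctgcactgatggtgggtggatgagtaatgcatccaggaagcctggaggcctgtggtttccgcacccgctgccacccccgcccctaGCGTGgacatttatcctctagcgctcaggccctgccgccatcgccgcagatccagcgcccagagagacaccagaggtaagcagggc
MMP14 (chr14:22836335-22836634, plus strand): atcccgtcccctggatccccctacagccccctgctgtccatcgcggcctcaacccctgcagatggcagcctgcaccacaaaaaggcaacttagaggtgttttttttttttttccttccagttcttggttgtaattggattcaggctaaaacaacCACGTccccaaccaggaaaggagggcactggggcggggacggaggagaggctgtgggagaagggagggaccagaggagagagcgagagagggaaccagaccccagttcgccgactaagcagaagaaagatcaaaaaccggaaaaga

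The F3 promoter held 1 AP-1 site, TGAGTCA, that begins 210 bases before the start, 4 GC boxes and no hypoxia response core. The PLAUR promoter held the same AP-1 letters 186 bases before the start and 2 hypoxia response cores. TIMP1 held 2 hypoxia response cores, ACGTG at 231 and GCGTG at 36 bases before the start, and MMP14 held 1, read on the other strand as CACGT at 96 bases. TFPI2 held 2 GC boxes and neither of the other motifs, and of the PLAU entries 1 held a hypoxia response core. Among 35116 promoters of the same length, 48.4% held a hypoxia response core, 4.95% an AP-1 site and 45% a GC box. The hypoxia core was therefore common. Whether any of these motifs bears on the levels was not tested.

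The fall-off with distance was followed in rings of array steps from the nearest high-score spot. F3 was lower at each further ring in both tumors, a description that has no test of its own. In tumor 1 it had 289 CPM in the high-score zone, 211 at 1 step, 178 at 2, 171 at 3, 167 at 4, 160.3 at 5 to 6 and 137 at 7 or more. In tumor 2 it had 307 in the high-score zone, then 234, 195, 177, 143, 119 and 117 at the same distances. The largest single drop in both tumors was between the zone and its first neighbours, where the intervals were separate (280 to 299 against 202 to 219.7 in tumor 1), and the later steps were smaller, with overlapping intervals between neighbouring rings from 2 to 6 steps in tumor 1.

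MMP1 was also highest inside the high-score zone of both tumors. In tumor 1 it had 76.4 CPM in the high-score zone, 58.8 at 1 step, 58.4 at 2, and between 41.7 and 50.03 further out. In tumor 2 it had 102 in the high-score zone, 85.8 at 1 step, 71.1 at 2, 58.9 at 3, and between 46.3 and 48.0 from 4 steps on. TFPI2 declined less, with 54.7 in the zone and 47.3 at 1 step in tumor 1, then between 41.4 and 49.1, and with 61.0 in the zone of tumor 2, 57.7 at 1 step and 45.1 at 7 or more.

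MMP14, PLAU and PLAT ran higher outward. MMP14 had 49.7 CPM in the high-score zone of tumor 1, 49.5 at 1 step and 66.9 at 7 or more steps, and 64.2, 63.3 and 109.6 at these distances in tumor 2, with a peak of 135 at 5 to 6 steps. PLAU had 527 in the high-score zone of tumor 1, 601 at 1 step and 713 at 7 or more, and 435, 543 and 770.3 at these distances in tumor 2. PLAT had 77.1 in the zone and 92.4 at 7 or more steps in tumor 1, and 71.0 and 107 in tumor 2. All 3 had their lowest or, for MMP14, second lowest value inside the high-score zone of each tumor.

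TIMP1, TIMP2 and PLAUR had no shared order across the tumors. TIMP1 had 1031 CPM in the high-score zone of tumor 1 and between 698 and 856 at all further distances, whereas tumor 2 had 863 in the zone, 714 at 2 steps and 866 at 5 to 6 steps. PLAUR had 129 in the zone of tumor 1 and between 96.6 and 107 outside it, and between 97.7 and 119 in all rings of tumor 2 with the zone at 101. TIMP2 lay between 191 and 223 in tumor 1, highest in the zone, and between 218 and 261 in tumor 2, highest at 7 or more steps.

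**Figure D2:**
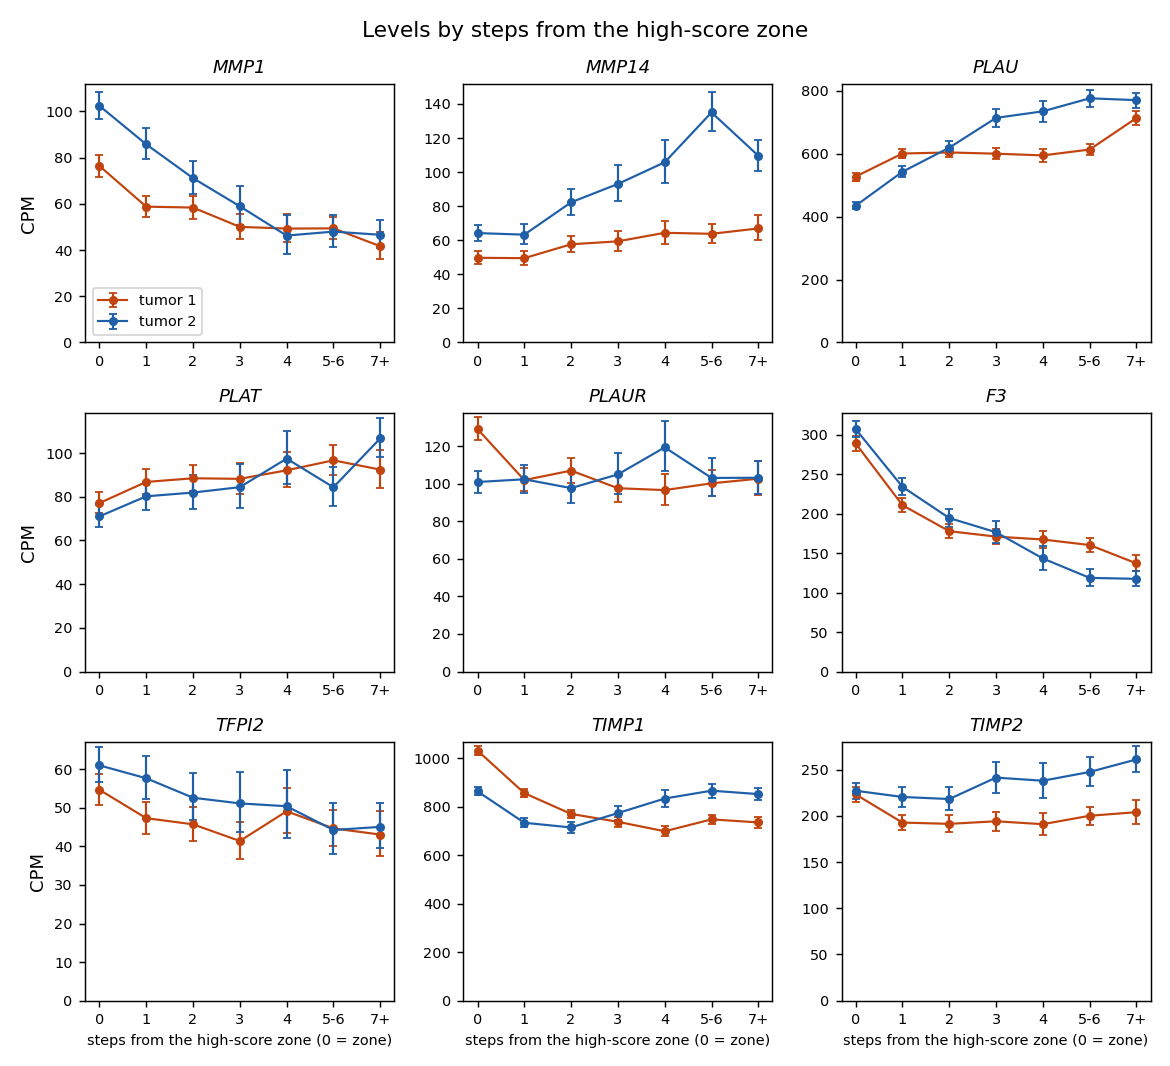
Levels of the 9 genes in CPM by array steps from the nearest high-score spot (0 is the zone itself) in tumors 1 and 2, with exact Poisson 95% intervals. F3 stands at 289 and 307 in the zone and at 137 and 117 at 7 or more steps, while PLAU stands at 527 and 435 in the zone and at 713 and 770.3 there.

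The score itself fell over the same rings, with a mean of 0.48 in the zone and 0.09 at 1 step in tumor 1 and 0.44 and 0.10 in tumor 2, so a ring does not separate distance from score. In tumor 2 muscle markers were at 23.8 CPM in the zone and 1455 at 7 or more steps, and fibroblast markers at 805 and 2010, whereas in tumor 1 muscle markers stayed between 11.9 and 15.1. With the low-UMI area left out, F3 still had 287 in the zone and 137 at 7 or more steps in tumor 1 and 308.5 and 115 in tumor 2.

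Distance was separated from score by pairing low-score spots near to and far from the high-score zone, each pair matched within 0.05 SD of the score, with 412 against 412 spots in tumor 1 and 484 against 484 in tumor 2. None of the 9 genes was called by edgeR (0 of 9, with 3 at an unadjusted p under 0.05), none by DESeq2 (1 at an unadjusted p under 0.05), and 10 of 13509 genes were called in all (0.074%). F3 had 161 and 144 CPM in near spots of tumors 1 and 2, against 145 and 116 in far spots. Near spots were above far spots in each tumor, with a log2 fold change of 0.21 ± 0.06 (unadjusted p = 0.00198, edgeR adjusted p = 0.655). TIMP1 had 665 and 769 CPM in near spots, against 725 and 857 in far spots, with a log2 fold change of -0.14 ± 0.04 (edgeR adjusted p = 0.66). PLAT had 89.1 and 88.1 in near spots, against 94.6 and 102 in far spots. The other 6 genes had log2 fold changes between -0.08 and 0.06, among them MMP1 with 46.3 and 49.8 CPM in near spots, against 43.6 and 48.4 in far spots. In tumor 2 muscle markers stood at 40.3 CPM in near spots, against 1224 in far spots. The low-UMI area held 18.4% of near and 18.4% of far spots in tumor 1, and 48.8% and 41.5% in tumor 2. Without the spots richest in markers of other cells F3 had a log2 fold change of 0.21 and none of the 9 was called by edgeR, with 4 at an unadjusted p under 0.05. Without matching on the score F3 was called (log2 0.32, edgeR adjusted p = 0.0303), beside 3 higher and 14 lower of 13882 genes. With the score not averaged over neighbours F3, MMP1 and MMP14 were called, beside 35 higher and 36 lower of 13575 genes.

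**Figure D3:**
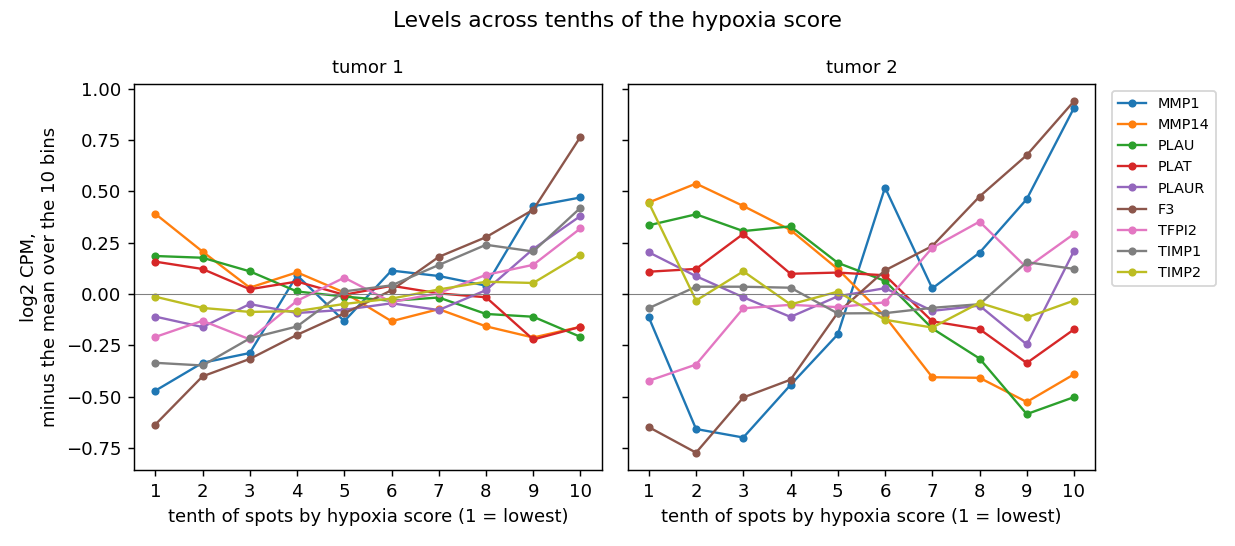
Log2 CPM of each gene minus its mean over the 10 deciles of spots by hypoxia score (1 lowest, 10 highest), in tumor 1 (left) and tumor 2 (right), 1 line per gene. The F3 line climbs in both tumors, apart from a dip at decile 2 in tumor 2, to 339 and 352 CPM in the highest decile, against 128 and 117 in the lowest, while the MMP14 and PLAU lines descend.

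Across score deciles F3 climbed to 339 CPM in the highest decile of tumor 1, against 128 in the lowest, and to 352 in tumor 2, against 117 in the lowest. MMP1 had 80.4 in the highest decile of tumor 1, against 41.8 in the lowest. In tumor 2 MMP1 had 126.7 in the highest decile, against 62.4 in the lowest, but deciles 2 and 3 were lower still at 42.8 and 41.6. The lowest decile of tumor 2 rests on 64 MMP1 UMIs (interval 48.1 to 79.7). In the low-UMI area of tumor 2 MMP1 had 113 CPM, against 73.2 in the rest of the section. Whether few UMIs per spot bear on the lowest decile was not tested. PLAU had 507 and 434 in the highest deciles of tumors 1 and 2, against 667 and 775 in the lowest. TIMP1 had 1113 in the highest decile of tumor 1, against 659.6 in the lowest, and 875 in tumor 2, against 767. PLAUR had 140.3 in the highest decile of tumor 1, against 99.9, while tumor 2 had 121 in the highest, 120 in the lowest and 87.9 in the ninth. TIMP2 had 231 in the highest decile of tumor 1, against 200 in the lowest, and 234 in tumor 2, against 326. The graded course of F3 was thus shared by both tumors, and that of PLAUR and TIMP2 was not.

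Depth below the tissue border gave another grouping. MMP1 and F3 were higher and MMP14, PLAU, PLAUR, TIMP1 and TIMP2 were lower in the inner than in the outer tertile of spots (848 against 919 spots in tumor 1, 979 against 997 in tumor 2). Of 14758 genes tested 5.66% were called, 2.3% higher and 3.36% lower, against 7 of the 9, 2 higher and 5 lower. The median log2 fold change of the 9 was -0.34, and 8 had the same sign in both tumors. Without the tumor as a block none of the 9 was called by edgeR (7 at an unadjusted p under 0.05), and 7 and 34 genes were called higher and lower in all. DESeq2 called 4 of the 9 (MMP1, MMP14, PLAU and TIMP1), beside 22 genes higher and 74 lower in all.

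MMP1 had 70.3 and 89.6 CPM in the inner tertiles of tumors 1 and 2, against 45.5 and 54.1 in the outer tertiles, a log2 fold change of 0.68 ± 0.08 (edgeR adjusted p = 7.52e-06). MMP14 had 44.4 and 58.4 in the inner tertiles, against 67.5 and 104 in the outer tertiles, a log2 fold change of -0.71 ± 0.08 (edgeR adjusted p = 6.43e-06). MMP1 and MMP14 thus again ran in opposite directions. F3 was higher inside too, with 226 and 242 in the inner tertiles, against 189 and 181 in the outer tertiles (log2 0.35 ± 0.07, edgeR adjusted p = 0.0059).

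PLAU had 508 and 464 CPM in the inner tertiles, against 658.5 and 713 in the outer tertiles (log2 -0.49 ± 0.07, edgeR adjusted p = 2.17e-04). Its receptor PLAUR was also lower inside, with 94.99 and 86.1 in the inner tertiles, against 118 and 112 in the outer tertiles (log2 -0.34 ± 0.07, edgeR adjusted p = 0.00591). PLAT was 90.8 and 77.4 inside, against 82.6 and 89.3 outside, with no shared direction. TIMP1 had 691 and 709 in the inner tertiles, against 963 and 879 in the outer tertiles (log2 -0.39 ± 0.07, edgeR adjusted p = 0.00203), opposite to its sign with the score. TIMP2 had 175 and 209.6 inside, against 233 and 263 outside (log2 -0.36 ± 0.07, edgeR adjusted p = 0.00312). TFPI2, at 49.2 and 61.0 inside, against 46.0 and 49.2 outside, did not pass (edgeR adjusted p = 0.161).

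Fibroblast markers were lower inside, at 538 and 398 CPM in the inner tertiles of tumors 1 and 2, against 1451 and 1972 in the outer tertiles, and the low-UMI area held 42.1% and 56.6% of the inner tertiles, against 7.73% and 11.03% of the outer tertiles. Without the spots richest in markers of other cells MMP14 had a log2 fold change of -0.66, PLAU of -0.49, TIMP1 of -0.32 and TIMP2 of -0.23. Without the low-UMI area the same 7 genes were called, beside 430 higher and 614 lower of all 14637 genes tested.

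**Figure D4:**
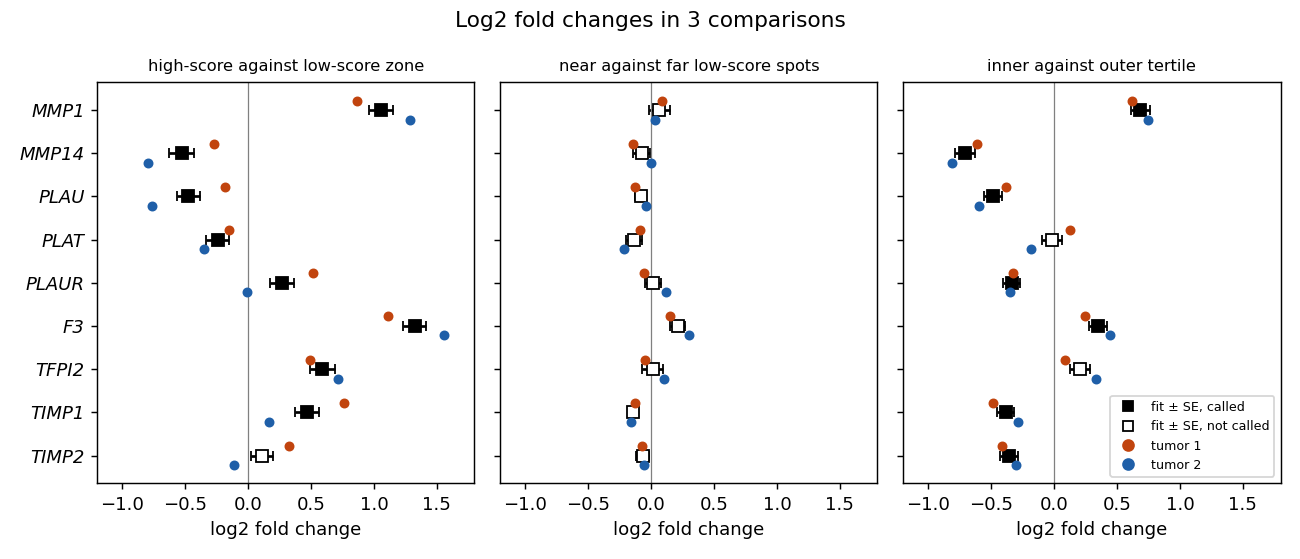
Log2 fold changes of the 9 genes from the edgeR fits for high-score against low-score zones, near against far low-score spots and inner against outer tertiles. Bars are the SE of the fit and not the spread between tumors. Filled squares mark called genes, and points give the values of tumor 1 (orange) and tumor 2 (blue). F3 has 1.32, 0.21 and 0.35 and MMP14 -0.53, -0.07 and -0.71 in these comparisons.

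Score and depth were crossed to see which member followed which, in fits chosen after seeing the data. Between high-score and low-score spots, 6 of the 9 were called within the outer tertile (beside 10.7% of all genes tested) and 1 within the inner tertile (beside 0.597%). Among outer spots F3 had 281 and 317 CPM in high-score spots of tumors 1 and 2, against 128 and 113 in low-score spots (log2 1.40). Among inner spots it had 317 and 277 in high-score spots, against 168 and 173 in low-score spots (log2 0.92 ± 0.20, edgeR adjusted p = 0.0174). F3 was thus higher with the score at both depths. Within the high-score zone depth made no called difference (log2 -0.02), but the tumors ran opposite ways. Inner spots were above outer spots in tumor 1 (317 against 281) and below them in tumor 2 (277 against 317).

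MMP1 in tumor 1 had 98.6 CPM in inner high-score spots, 61.0 in outer high-score spots, 55.5 in inner low-score spots and 29.7 in outer low-score spots. In tumor 2 these values were 101, 91.6, 107 and 38.9, so the inner low-score spots were not below the high-score ones, although their value rests on 37 UMIs (interval 75.1 to 147). Those inner low-score spots of tumor 2 all lay in the low-UMI area, with a median of 1219 UMIs per spot. TIMP1 in outer spots had 1224 and 955 in high-score spots, against 755 and 858 in low-score spots, and in inner spots 776 and 793, against 574 and 631. By these values TIMP1 was higher with the score and lower with depth in each tumor. MMP14 had 31.2 and 57.3 in inner high-score spots, against 64.1 and 82.2 in outer high-score spots, and PLAU had 438 and 402, against 595 and 505. Within the high-score zone the inner against outer log2 fold change was -0.78 for MMP14, -0.40 for PLAU, -0.48 for TIMP1 and -0.57 for TIMP2, all 4 called by edgeR (beside 2.27% of all genes). Within the low-score zone 1 of the 9 was called by depth (beside 0.532% of all genes), MMP1 with a log2 fold change of 1.10 (edgeR adjusted p = 7.32e-04).

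**Figure D5:**
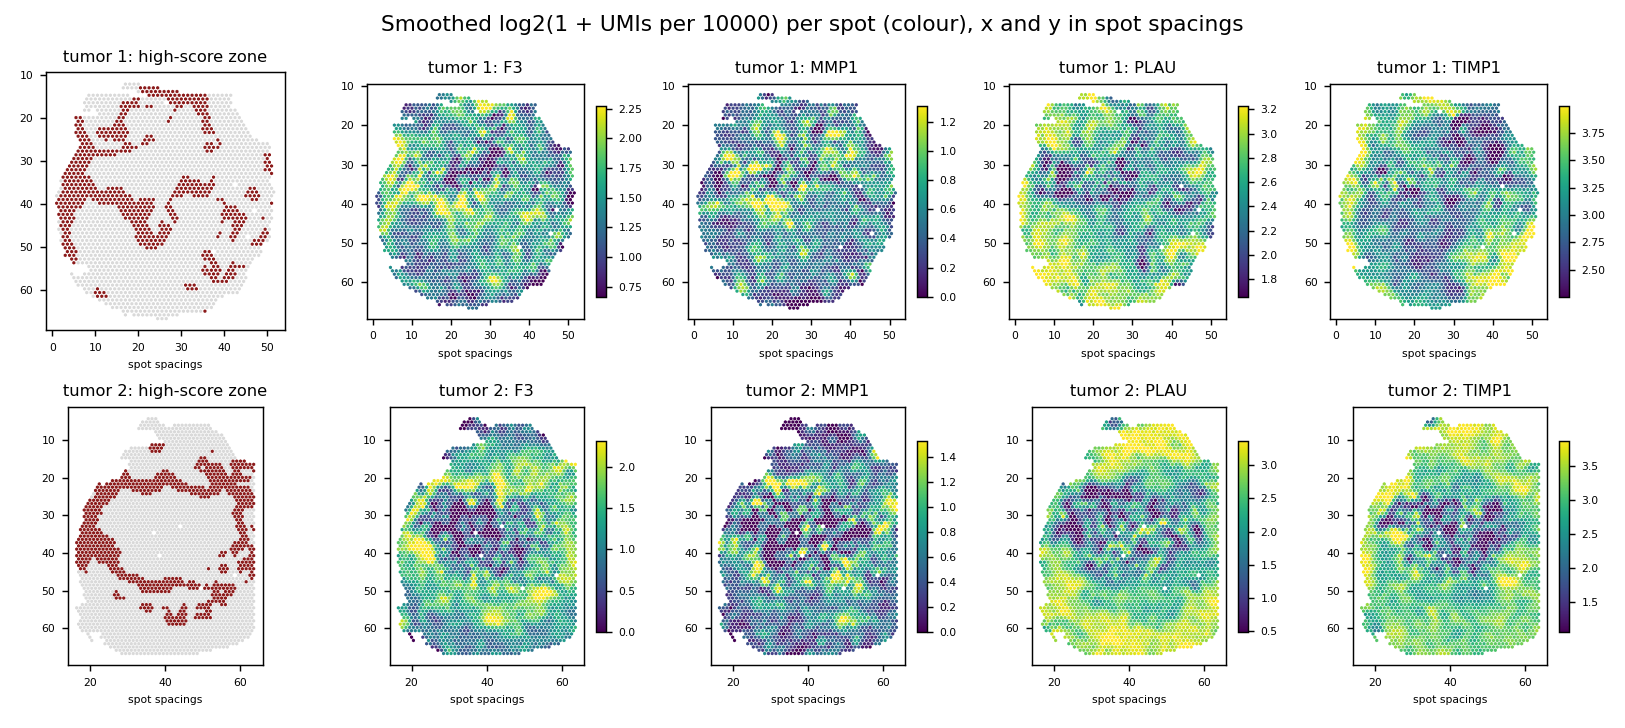
Maps of tumor 1 (top) and tumor 2 (bottom) with both axes in spot spacings: the high-score zone in red, and the smoothed log2 of 1 plus UMIs per 10000 of F3, MMP1, PLAU and TIMP1 in colour. The high-score zone of tumor 2 encircles a central area, and spots with few UMIs there take low values on this per-spot scale.

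Members also differed in how patchy they were. Moran I, which is 0 for a random layout and nears 1 where neighbouring spots share values, was 0.32 for TIMP1 in tumor 1 (rank 67 of 6373 genes) and 0.24 in tumor 2 (rank 172 of 4695). PLAU had 0.18 (rank 240) and 0.32 (rank 44), and F3 had 0.16 (rank 283) and 0.22 (rank 250). TFPI2 had 0.04 (rank 3443) and 0.01 (rank 4673), close to a scattered layout in both tumors. PLAUR had 0.04 (rank 3716) and 0.09 (rank 2405), and PLAT had 0.06 (rank 2288) and 0.09 (rank 2219). Moran I also depends on how many UMIs a gene has per spot.

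Over patches of neighbouring spots (74 in tumor 1, 83 in tumor 2), correlations of log2 levels described which members shared a layout; patches of a section share a library and are not replicates. MMP1 went with F3 (r = 0.50 and 0.45 in tumors 1 and 2), and MMP14 went with PLAU (0.52 and 0.58). MMP1 and PLAU were opposed (-0.56 and -0.61), as were PLAU and F3 (-0.53 and -0.59) and MMP1 and MMP14 (-0.43 and -0.55). TIMP1 and TIMP2 went together in tumor 1 (0.66) and not in tumor 2 (0.08). Of the 36 pairs, 26 had the same sign in both tumors.

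Among 4693 genes, ranked by the lower of the tumors' correlations, the layout most like that of F3 was shown by MT1X, a metallothionein (0.83 in tumor 1 and 0.74 in tumor 2), and LIMCH1 (0.88 and 0.74). For MMP1 these were the phosphatase DUSP1 (0.67 and 0.65) and DDIT4, an inhibitor of mTOR signalling (0.63 and 0.63). For PLAU they were the calcium-binding proteins S100A4 (0.82 and 0.71) and S100A6 (0.80 and 0.70), and for MMP14 they were EMP1 (0.59 and 0.59) and the collagen COL5A2 (0.56 and 0.66). For TIMP1 they were the glycolytic enzyme PKM (0.77 and 0.62) and the lectin LGALS1 (0.75 and 0.58). For TIMP2 they were ZNF90 (0.57 and 0.54) and the collagen COL3A1 (0.78 and 0.51), and for TFPI2 the collagen-modifying enzymes P4HA1 (0.52 and 0.49) and PLOD2 (0.47 and 0.46). PLAUR and PLAT had no close match: the most alike were NIBAN2 for PLAUR (0.37 and 0.38) and TRIM41 for PLAT (0.40 and 0.36).

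The rest of the system was described with 97 further genes in 9 lists. In the high-score against low-score comparison 72 were tested and 12 were called higher and 5 lower (23.6%, beside 18.6% of all genes), with a median log2 fold change of 0.07. PLG, VTN and the coagulation factors F2, F5, F7, F9, F10 and F11 were too low to test. S100A10, which binds plasminogen at the cell surface with annexin A2, had 1687 and 1483 CPM in the high-score zones, against 1278 and 1384 in the low-score zones (log2 0.37 ± 0.09, edgeR adjusted p = 0.00139).

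The counts of single lists stand beside 10.2% of all genes called higher and 8.41% called lower in this comparison. In the coagulation list 3 of 10 tested genes were higher and none was lower. Among them was PROS1, the anticoagulant protein S, with 32.1 and 37.3 CPM in the high-score zones, against 25.5 and 20.9 in the low-score zones. VKORC1, the vitamin K recycling enzyme that clotting factors need, had 169 and 154, against 123 and 124. Of 8 tested matrix metalloproteinases 1 was called, the stromelysin MMP10, with 4.85 and 7.06, against 2.64 and 3.48. Of 12 tested ADAM and ADAMTS proteases 4 were higher and 2 lower. ADAM8, a membrane sheddase, had 145 and 114 CPM in the high-score zones, against 58.1 and 50.9 in the low-score zones (log2 1.36 ± 0.09, edgeR adjusted p = 3.26e-18). TIMP3 was lower, with 74.7 and 68.0, against 88.0 and 116, unlike TIMP1.

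Cathepsin S (CTSS), a lysosomal protease of antigen-presenting cells, was lower, with 22.3 and 10.9 CPM in the high-score zones, against 36.0 and 22.8 in the low-score zones, while the cathepsin inhibitor CSTB was higher, with 275 and 249, against 215 and 211. FAP, a serine protease typical of activated fibroblasts, had 2.00 and 0.430, against 5.78 and 3.998 (log2 -1.86 ± 0.35, edgeR adjusted p = 5.63e-05). FAP was scarce, with 237 and 63 UMIs over the whole sections of tumors 1 and 2, and the cause of its fall was not tested.

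In the inner against outer comparison 74 of the 97 were tested and 3 were called higher and 15 lower (24.3%, beside 5.66% of all genes), with a median log2 fold change of -0.06. MMP2, the gelatinase that MMP14 activates, had 8.54 and 8.17 CPM in the inner tertiles, against 16.7 and 16.3 in the outer tertiles (log2 -0.97 ± 0.13, edgeR adjusted p = 9.80e-05). LRP1, the endocytic receptor that clears protease and inhibitor complexes, had 25.5 and 30.0, against 41.8 and 70.6 (edgeR adjusted p = 5.32e-06). PROS1 was higher inside, with 31.7 and 40.0, against 25.6 and 26.4. In the near against far comparison none of 71 tested genes was called by edgeR, with 4 at an unadjusted p under 0.05.

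Of the other called genes of these lists, most were lower inside. TIMP3 had a log2 fold change of -0.44 ± 0.08 and GAS6, a vitamin K-dependent ligand of the AXL receptor, one of -0.38 ± 0.07, each with the SE of the edgeR fit. The membrane protease ADAM19 had -0.67 ± 0.08, the lysosomal proteases CTSS and CTSD had -1.07 ± 0.14 and -0.28 ± 0.07, and the intracellular serpin SERPINB6 had -0.43 ± 0.07. The proprotein convertase PCSK5 had -1.35 ± 0.20 and FAP -1.37 ± 0.30. Of 13 tested cathepsins and cystatins 2 were called lower and none higher, and of 13 tested ADAM and ADAMTS proteases 2 were called lower and none higher. The list of membrane and secreted serine proteases and their inhibitors had 5 of 12 called lower and 2 higher. Over all genes tested by depth 3.36% were called lower and 2.3% higher.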

How the data were processed

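The deposited matrices hold UMI counts for each gene in each spot. Space Ranger 1.3.0 wrote them, per the file headers, and the submitters' processing notes name hg38. Of 4992 array positions, 2536 and 2841 lay over tissue and passed a minimum of 500 UMIs. The genes, lists and tests were chosen with earlier results of these data known. Each spot's hypoxia score averaged z-scores of log2(1 + UMIs per 10000) over 28 genes and then over adjacent spots, and these genes were not tested in the high-score against low-score comparison. Since spots are not replicates, UMIs were summed per tumor and zone and fitted in edgeR 4.0.16 (TMM scaling, filterByExpr, quasi-likelihood F test, tumor as block). SE is the absolute log2 fold change over the square root of F, and fold changes of single tumors used a prior count of 2. On counts simulated with its own dispersions, the high-score fit (14191 genes) recovered 94% of genes changed by a log2 of 1 and 58% at 0.5, with 10 false calls. Only genes above a minimum UMI sum were changed. These shares hold only where those dispersions do, and they do not measure recovery under a larger spread between tumors. DESeq2 1.42.0 was an alternative. Patches spanned 6 array rows and 12 columns with at least 15 spots. Of each list, the 2 called genes with the largest absolute log2 fold change were eligible to be named; 1 gene so eligible is not reported here. Positions and promoters came from RefSeq tables.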

Additional observations from a re-analysis of the deposited data

How the results depend on the processing

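With the tumor as a replicate block 8 of the 9 genes were called between high-score and low-score zones. The count was 3 without the replicate block, 2 with DESeq2 and 1 within the inner tertile, an alternative chosen after seeing the data, while the other 12 settings gave 6 to 8. In the inner against outer comparison 7 were called, against 0 without the replicate block, 4 with DESeq2, and 4 within the high-score zone and 1 within the low-score zone, both chosen after seeing the data. Near against far gave 0, against 1 without matching on the score and 3 with the score not smoothed. Fits within the inner or the outer tertile aside, F3 and MMP1 were called under each of the 13 other settings of the first comparison. TFPI2 was called under 12, MMP14 and PLAU under 11, TIMP1 under 10, PLAUR under 5, PLAT under 2 and TIMP2 under 0. Within the inner tertile F3 was called and MMP1 was not. Signs turned for PLAUR in tumor 2 alone (-0.0093, without replicate 1), against 0.51 in tumor 1 alone (without replicate 2), and for TIMP2 in tumor 2 alone (-0.11), in thinned spots (-0.12) and within the inner tertile (-0.042). Near against far, signs turned for MMP14 with steps to the top 15 percent (0.014), for PLAUR (-0.013) and TFPI2 (-0.058) with at least 2000 UMIs per spot, in thinned spots for PLAUR (-0.055), PLAT (0.21), TIMP2 (1.3e-04) and TFPI2 (-0.31), and for TFPI2 without marker-rich spots (-0.0064), and 6 of the 9 had the same sign in both tumors: tumor 1 alone turned PLAUR (-0.06) and TFPI2 (-0.05), and tumor 2 alone turned MMP14 (5.4e-05). Inner against outer, they turned for PLAT in tumor 1 alone (0.13), with the frame edge as border (0.049), in thinned spots (0.16) and within the low-score zone (0.30), and for F3 within the high-score zone (-0.021). The cause of these changes was not tested.

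Counts over all genes moved too. In the first comparison 1448 genes were higher and 1193 lower, against 287 and 72 with DESeq2, 444 and 227 without the replicate block, 493 and 258 in thinned spots and 540 and 1362 with library size alone, which moved the median of all genes to -0.10. Inner against outer gave 340 and 496, against 22 and 74 with DESeq2, 7 and 34 without the replicate block, 130 and 172 in thinned spots, 130 and 264 with library size alone, 562 and 770 with at least 2000 UMIs and 599 and 796 with the frame edge as border. Near against far gave 0 and 10, against 0 and 0 with DESeq2, 8 and 46 without the filter on low counts and 35 and 36 with the score not smoothed. Leaving out a tumor leaves no residual degree of freedom and so gives values without a test.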

Other observations

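Inside the low-score zone, spots in the low-UMI area had other levels of several of the 9 genes than spots outside it. MMP1 had 89.3 and 94.5 CPM in the low-UMI area of tumors 1 and 2 (70 and 398 spots), against 45.1 and 40.2 outside it. The tumor 1 value has a counting interval of 55.3 to 136 and that of tumor 2 one of 69.7 to 125, both above the level outside. F3 had 187 and 163 in the low-UMI area, against 145 and 107 outside it, and TIMP2 had 251 and 386, against 194 and 251. PLAU had 569.6 and 532 in the low-UMI area, against 657 and 819.9 outside it. In tumor 1 the counting intervals of the low-UMI area held the outside level for F3 (136 to 251), TIMP2 (191 to 323) and PLAU (477 to 675). In tumor 2 the intervals of these genes did not hold it. TIMP1 ran in different directions, with 1211 in the low-UMI area of tumor 1, against 655 outside it, and 741 in that of tumor 2, against 834 outside it. These groups of spots were defined from the UMI counts of the same sections, and no test was made.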
